A study of Mus musculus with 16 samples.

Results

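The nuclei described here are microglia of the mouse hippocampus that carry transcripts of activation genes. They were chosen from 147873 nuclei by 3 or more UMIs (unique molecular identifiers, 1 per captured transcript) summed over Inpp5d, Csf1r, Siglech, Ly86, Dock8 and Ikzf1, with at most 1 UMI each of border macrophage genes (Mrc1 and F13a1), neuronal genes (Slc17a7, Gad1 and Gad2) and oligodendrocyte genes (Mog and Mag). These criteria kept 6170 microglial nuclei. Of them, 595 had 2 or more UMIs summed over Axl, Itgax, Csf1, Lpl, Cst7, Spp1 and Gpnmb and are called activated nuclei below, and the other 5575 had 0 or 1. "Activated" stands for this count alone.

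Nuclear RNA was measured in 16 hippocampal samples of female mice aged 9 months. They were labelled Ch25h+/+ or Ch25h-/-, each with (Tau+) or without (Tau-) a tau allele, with 4 samples in each of the 4 groups. The enzyme made from Ch25h, cholesterol 25-hydroxylase, turns cholesterol into 25-hydroxycholesterol, and the study's title places it between STING, interferon and tau pathology. The labels name neither the tau line, the promoter that drives it, the deleted part of Ch25h nor the background strain, and do not say that each sample is a separate animal, so p-values measure the spread between these libraries. Libraries held 51270831 to 84870650 UMIs and 8130 to 11654 nuclei, with a median of 3846 to 6508 UMIs per nucleus.

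Microglia are the resident macrophages of the brain. In the healthy brain they are known by a set of homeostatic transcripts such as P2ry12, Tmem119 and Cx3cr1. Near protein deposits and dying neurons, microglia take up debris and lipid, lower those transcripts and raise a disease-associated set that includes Apoe, Axl, Itgax, Lpl, Cst7, Spp1 and Gpnmb, in part through the receptor Trem2 and its adaptor Tyrobp. Some also carry interferon-stimulated transcripts, which STING signalling can induce.

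The genotype labels were checked first over all nuclei. The lincRNA Gm43049 stood at 67.4 to 87.0 CPM (UMIs of the gene per 1000000 UMIs summed) in the 8 Tau+ libraries and at 0.018 to 0.20 CPM in the 8 Tau- libraries, without overlap. It was picked with its values in these data known, so its separation of the labels is no independent check of tau status. Ch25h did not separate the libraries labelled Ch25h+/+ (0.17 to 0.74 CPM) from those labelled Ch25h-/- (0.21 to 0.55 CPM), and reads outside a deleted part would check nothing. The lncRNA Gm26902, whose gene overlaps Ch25h on the other strand, read 0.59 to 1.0 CPM in Ch25h+/+ and 0.18 to 0.42 CPM in Ch25h-/-. It too was picked after its values were seen. Directions by genotype and tau status below rest on the labels.

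Of the 595 activated nuclei, 583 came from Tau+ libraries. Among libraries labelled Ch25h+/+ Tau+, replicates 1 to 4 held 178 of 623 microglial nuclei (28.6%), 63 of 475 (13.3%), 5 of 271 (1.85%) and 99 of 501 (19.8%). Among those labelled Ch25h-/- Tau+, they held 99 of 420 (23.6%), 79 of 519 (15.2%), 11 of 430 (2.56%) and 49 of 451 (10.9%). The Tau- libraries held 0, 0, 2 and 2 activated nuclei in Ch25h+/+ and 1, 0, 2 and 5 in Ch25h-/-, at most 1.43% of their microglia. A count of 0 allows a share of up to 0.89%, 0.84% and 0.66% in the 3 libraries without one (3 counts of the total, counting error only). The 8 Tau+ values lay above the 8 Tau- values, but replicate 3 of both Tau+ groups stood far below the other 6 Tau+ libraries. In those 2 libraries Gm43049 read 67.4 and 71.7 CPM over all nuclei, in the range of the other Tau+ libraries or just under it. The separation of Tau+ from Tau- was not complete under other settings. With nuclei marked as doublets removed, Ch25h+/+ Tau+ replicate 3 stood at 1.23% and Ch25h-/- Tau- replicate 4 at 1.27%. Without Csf1 and Lpl, the former stood at 0.37% and the Tau- libraries at up to 1.12%. The activation genes were chosen with tau results of these data known, so the contrast between Tau+ and Tau- is given with no test.

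**Figure D1:**
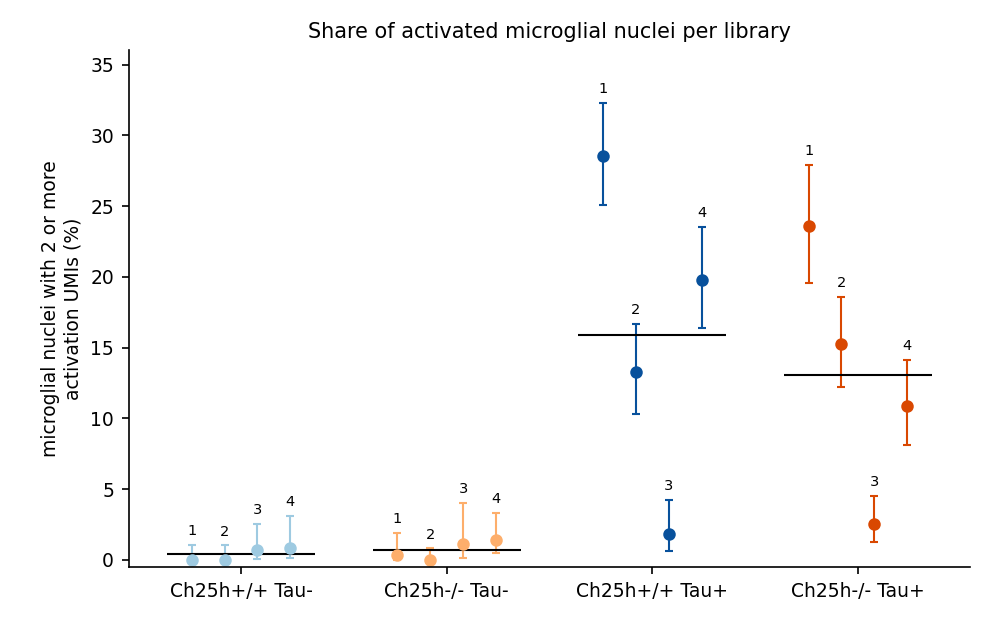
Percent of microglial nuclei with 2 or more activation UMIs in each of 16 libraries, by group. Points are libraries with exact (Clopper-Pearson) 95% intervals that cover counting error only, numbers are replicates and lines are group means. Of the Tau+ libraries, 6 lie between 10.9% and 28.6%, replicate 3 of each Tau+ group at 1.85% and 2.56%, and the Tau- libraries between 0 and 1.43%.

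The share did not differ detectably with Ch25h. It was 15.9% ± 11.3 (SD, n = 4) in Ch25h+/+ Tau+ and 13.1% ± 8.76 (SD, n = 4) in Ch25h-/- Tau+, a difference of -2.81 percentage points (two-sided exact permutation test over 70 arrangements, p = 0.714, where 0.0286 is the lowest p this design allows). Leaving out 1 library at a time moved the difference between -7.48 and 1.43 points, and it turned positive without Ch25h+/+ replicate 1 (1.43) or without Ch25h-/- replicate 3 (0.69). Left out together, the low replicate 3 of each group gave a difference of -3.98 points (exact permutation p = 0.60).

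Depth enters such a share, since a deeper nucleus has more chances of a second UMI. In the 6 Tau+ libraries with 49 or more activated nuclei, these had a median of 1797 to 2594 UMIs and the other microglial nuclei 1370 to 1896. With every microglial nucleus of 1000 or more UMIs thinned to 1000, the share was 18.3%, 6.70%, 1.03% and 11.2% in Ch25h+/+ Tau+ and 11.8%, 7.38%, 1.19% and 7.65% in Ch25h-/- Tau+, against 0 to 0.90% in Tau-. Thinning left out 15 to 94 shallower microglial nuclei of each Tau+ library and 18 to 142 of each Tau- library. Oligodendrocyte nuclei reached 2 activation UMIs in 2.04 to 5.97% of nuclei of the Tau+ libraries and 0.91 to 3.98% of those of the Tau- libraries, at median depths of 1610 to 2197 and 1418 to 1951 UMIs. Replicate 3 of each Tau+ group stood at 2.89% and 2.28% in oligodendrocytes, next to 1.85% and 2.56% in microglia. Unthinned, these 2 microglial shares were thus close to those of oligodendrocytes of the same libraries. Thinned to 1000 UMIs, the shares of these libraries were 0.53% and 0.61% in oligodendrocytes and 1.03% and 1.19% in microglia. Without Csf1 and Lpl, the microglial share was 0.37% and 1.16% in the 2 libraries of replicate 3, 6.94 to 17.4% in the other Tau+ libraries and at most 1.12% in Tau-, and the oligodendrocyte share at most 0.31%. Unthinned and with Csf1 and Lpl counted, replicate 3 thus stood near the oligodendrocyte level and the Tau- libraries mostly below it. Thinned, replicate 3 stood above the oligodendrocytes of the same libraries. Without Csf1 and Lpl, some libraries of replicate 3 and of Tau- stood above the oligodendrocyte level.

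The nuclei carried microglial transcripts that the selection did not use. In the same 6 libraries, C1qa, a chain of complement C1q, had a median of 669 CPM in activated nuclei against 18.8 CPM over all nuclei, and Trem2 299 against 6.99 CPM. Of 8 markers of T and NK cells, 7 had no UMI in activated nuclei, and the list summed to 0 to 24.8 CPM (10 UMIs), against 12.3 to 119 CPM (329 UMIs) in other microglial nuclei. The part of this difference in the results was not tested. Of 10 markers of monocytes, dendritic cells and neutrophils, 5 had none, and the list summed to 45.7 to 104 CPM in activated and 46.9 to 79.9 CPM in other microglial nuclei. Of 8 markers of border macrophages, 4 had none, and the list summed to 80.5 to 152 against 117 to 156 CPM. The 10 excitatory-neuron markers summed to 1519 to 5143 CPM in activated nuclei and to 2114 to 3307 CPM in the other microglial nuclei. On that scale, RNA free in the suspension accounted for 9.62 to 30.8% of UMIs in activated nuclei and for 14.0 to 21.2% in the others. It was highest in activated nuclei of Ch25h-/- replicate 4. The neuronal level therefore moved with single libraries, and its part in the results was not tested. Any 2 libraries shared 10 to 40 nucleus barcodes, and no barcode belonged to activated nuclei of 2 libraries.

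The 7 activation genes contributed unequally, and their levels are a description, since they chose the nuclei. Csf1, the ligand of the growth factor receptor Csf1r, was found in 314 activated nuclei (52.8%) and Axl, a receptor tyrosine kinase that binds Gas6 on dying cells, in 296 (49.7%). Lpl, a lipase of lipoprotein triglycerides, was found in 240 (40.3%), Itgax, the integrin chain CD11c, in 195 (32.8%), and Spp1, secreted osteopontin, in 154 (25.9%). Cst7, an inhibitor of lysosomal cysteine proteases, was found in 77 (12.9%) and Gpnmb, a glycoprotein of lysosome-loaded phagocytes, in 61 (10.3%). Spp1 supplied 537 of the 2723 activation UMIs and reached 72 UMIs in a single nucleus. Most nuclei rested on few molecules: the median was 3 activation UMIs, 137 nuclei had UMIs of 1 activation gene only, 253 of 2 and 205 of 3 or more, and 97 had only Csf1 or Lpl. Axl and Itgax occurred together in 89 nuclei, 30.1% of those with Axl and 45.6% of those with Itgax.

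**Figure D2:**
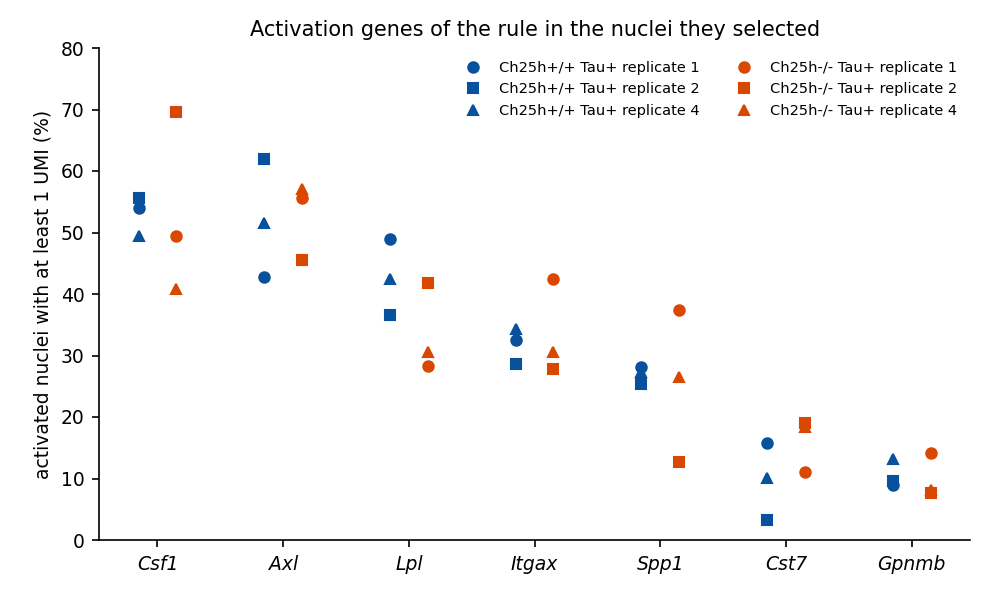
Percent of activated nuclei with at least 1 UMI of each activation gene in the 6 Tau+ libraries with 49 or more activated nuclei; colours are genotypes and shapes are replicates. Csf1 and Axl are the most frequent in most libraries, and Spp1 spans 12.7 to 37.4% of nuclei.

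At the threshold, 582 microglial nuclei had 1 activation UMI and stayed out, while 220 had exactly 2 and 121 had 3. A further 23 nuclei met all other criteria with 2 microglial UMIs and stayed out, and 26 had exactly 3.

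To ask how activated nuclei differ beyond the genes that chose them, UMIs were summed over activated and over other microglial nuclei within each of the 6 Tau+ libraries that held at least 20 of both (replicates 1, 2 and 4 of each genotype). All genes of the selection were left out, and the library was a term in the fit. Of 8292 genes tested, 480 rose (5.79%) and 432 fell (5.21%) at an adjusted p under 0.05, 11.0% in all, with a median log2 fold change of 0.00 over all genes. Of the 912 called genes, 735 moved the same way in all 6 libraries, as did 1192 of all 8292 tested genes. The calls were made from these same libraries, so their agreement is no separate evidence.

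Atf3 and Igf1 were among the largest rises. Atf3, a transcription factor of the stress response, stood at 62.6 to 98 CPM (median 83.2) in activated nuclei, 1.12 to 15.0 (median 12.2) in other Tau+ microglia and 0 to 10.1 (median 4.28) in microglia of the 8 Tau- libraries. No activated value overlapped the others, and the log2 fold change was 3.07 ± 0.32 (SE, adjusted p = 3.94e-07). Igf1, insulin-like growth factor 1, read 147, 154 and 111 CPM in activated nuclei of Ch25h+/+ replicates 1, 2 and 4 and 133, 63.3 and 98.4 CPM in those of Ch25h-/-. In the other microglia of the same libraries it read 28.0, 33.5 and 17.0 CPM and 11.9, 5.26 and 7.51 CPM. Every activated value lay above every other value, with a log2 fold change of 2.78 ± 0.22 (SE, adjusted p = 2.99e-09).

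Rab7b, a small GTPase of the endosome, rose by 2.86 on the log2 scale and Cd300lb, an activating receptor of myeloid cells, by 2.59. Fam20c, a kinase of secreted proteins, rose by 2.52, Cybb, the catalytic chain of the phagocyte NADPH oxidase, by 2.44, Plau, the protease urokinase, by 2.44, and Lgals3, galectin-3, by 2.39. Lilrb4a, an inhibitory receptor of myeloid cells, rose from 86.6 ± 37.7 to 408 ± 72.2 CPM (SD, n = 6 libraries), a log2 fold change of 2.25 ± 0.14 (SE). Its near copy Lilr4b rose by 2.32, and counts of such copies may be split. The chemokine genes Ccl4 and Ccl3 rose by 2.69 and 2.40. For Ccl4 the call ended without Ch25h-/- replicate 1 or without Ch25h-/- replicate 2, with an adjusted p of up to 0.0808.

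Bank1, a scaffold protein best known in B cells, had the largest fall of the named genes. It read 5.71 to 27.1 CPM (median 15.1) in activated nuclei, 94.6 to 183 (137) in other Tau+ microglia and 216 to 501 (356) in Tau- microglia. The 3 sets of libraries did not overlap, and the log2 fold change against other Tau+ microglia was -3.05 ± 0.23 (SE, adjusted p = 1.46e-09). Gm31243, an antisense gene, showed the same order without overlap, with a log2 fold change of -2.58. It is no separate result: Gm31243 (chr3:135904344-136167184, plus strand, GRCm38) overlaps Bank1 (chr3:136053363-136326066, minus strand), and reads of the pair may not be told apart. Both lie on chromosome 3, as does Gm43049 (chr3:140692038-140760704), and the part of that position in the order of Tau+ and Tau- microglia was not tested. Slc2a5, a fructose transporter, had one of -2.37, and its other Tau+ microglia (72.8 to 123 CPM) overlapped Tau- microglia (121 to 230 CPM). Tmem119, a membrane protein that marks microglia, read 33.3 ± 20.5 CPM in activated nuclei and 120 ± 22.1 in the others (SD, n = 6), a log2 fold change of -1.93 ± 0.22 (SE). Ltc4s, the synthase of a leukotriene, had a log2 fold change of -1.96, Nhs of -1.99, Kcnk12, a potassium channel subunit, of -1.92, Myo18b, a myosin, of -1.88 and BC035044 of -1.86. Gm3739, of a family of near-identical genes, had one of -2.08 and is uncertain for that reason. Il1rapl2 and Adarb2 were also called lower (-2.31 and -1.88). However, the estimate of free RNA reached its cap of 100% of their UMIs in activated nuclei. In the others it was 34.7% and 33.4%. Adarb2 was no longer called when each activated nucleus was compared with another of like depth.

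**Figure D3:**
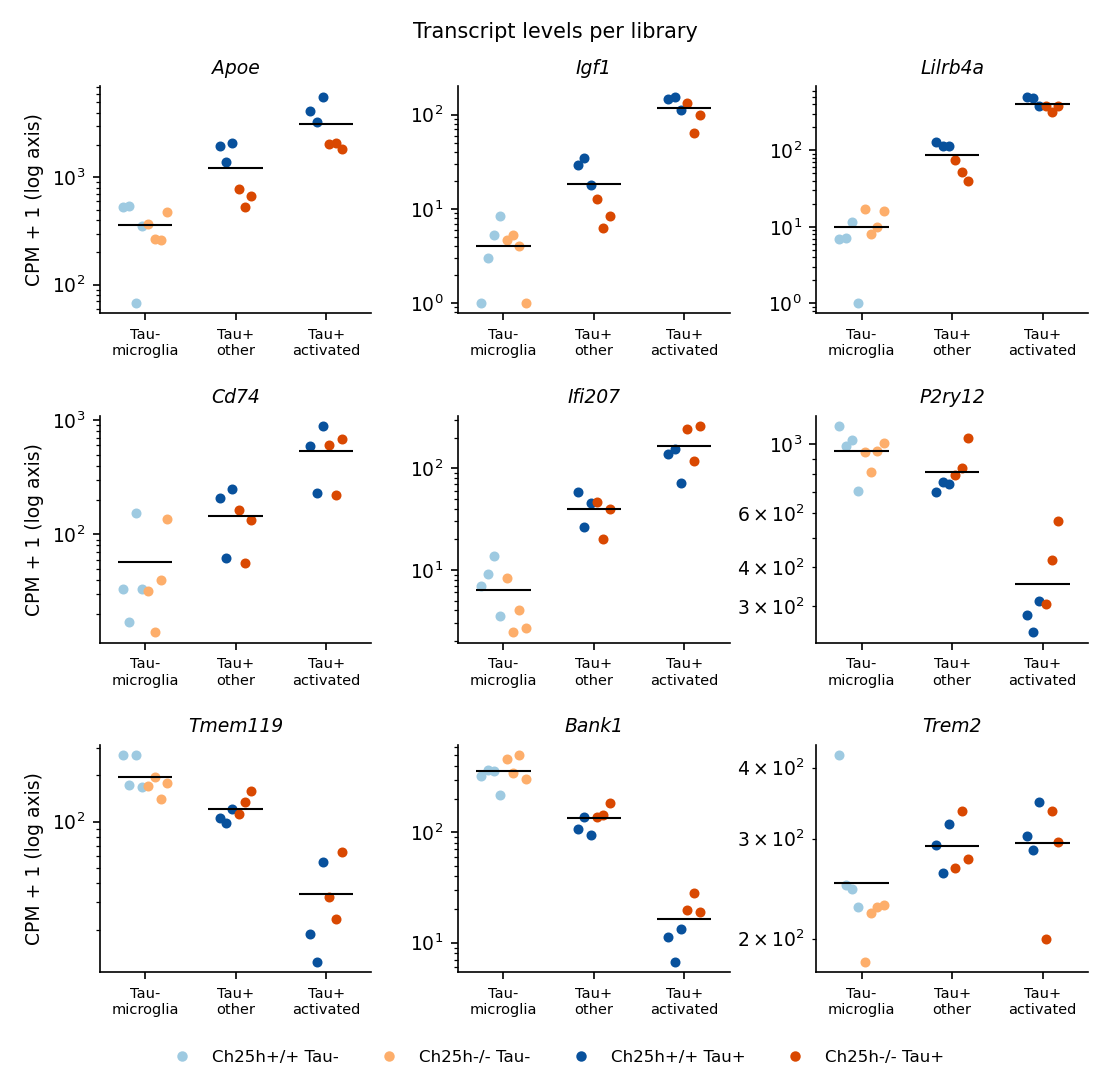
Levels (CPM + 1, log axis) of 9 genes in microglia of the 8 Tau- libraries and in other and activated microglial nuclei of 6 Tau+ libraries. Points are libraries coloured by group, and lines are means. Apoe, Igf1, Lilrb4a, Cd74 and Ifi207 are higher in activated than in other nuclei of the same library, P2ry12, Tmem119 and Bank1 are lower, and Trem2 overlaps.

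The homeostatic list moved down: 13 of its 16 tested members fell and none rose, with a median log2 fold change of -0.79. P2ry12, an ADP receptor of microglial processes, read 279, 246 and 310 CPM in activated nuclei of Ch25h+/+ and 303, 421 and 563 CPM in those of Ch25h-/-, against 703 to 1051 CPM in the others. The log2 fold change was -1.24 ± 0.09 (SE, adjusted p = 6.58e-10), with no overlap. Log2 fold changes were -1.29 for Selplg, the ligand of P-selectin, -0.95 for Sall1, a transcription factor of microglial identity, and -0.47 for Cx3cr1, the fractalkine receptor. P2ry13, Cst3, Gpr34, Olfml3 and Fcrls were among the others that fell, while Tgfbr1, Csf3r and Mef2c were not called.

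The disease-associated list moved up: 23 of its 33 tested members rose and none fell, with a median log2 fold change of 0.77. Apoe, the main apolipoprotein of brain lipid particles, read 4126, 3261 and 5640 CPM in activated nuclei of Ch25h+/+ replicates 1, 2 and 4 and 2038, 2084 and 1825 CPM in those of Ch25h-/-. In the other microglia it read 1947, 1376 and 2101 CPM and 776, 531 and 670 CPM. Apoe was higher in activated nuclei of all 6 libraries, with a log2 fold change of 1.42 ± 0.09 (SE, adjusted p = 2.34e-08), although the 2 states overlapped across genotypes. Free RNA accounted for 14.7% of Apoe UMIs in activated nuclei and for 39.3% in the others. Without the library term, Apoe was no longer called.

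Other members of that list included Myo1e, a myosin of phagocytic cups, at 729 ± 167 against 210 ± 101 CPM (SD, n = 6). Apobec1, an RNA cytidine deaminase, rose from 326 ± 69.4 to 1015 ± 166 CPM (log2 fold change 1.64), and Colec12, a scavenger receptor, by 1.76. Cd274, the checkpoint ligand, rose by 1.40, the lysosomal proteases Ctsb and Ctsd by 0.78 and 0.33, and the tetraspanin gene Cd9 by 0.64. The call of Ctsd ended under DESeq2, without the library term and in either genotype alone. Trem2 and Tyrobp did not pass the test. Trem2 read 199 to 347 CPM in activated and 260 to 334 CPM in other nuclei, a log2 fold change of 0.00 ± 0.10 (SE), and Tyrobp had one of 0.16 ± 0.14 (SE). Clec7a, another gene of this set, was not analysed here.

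**Figure D4:**
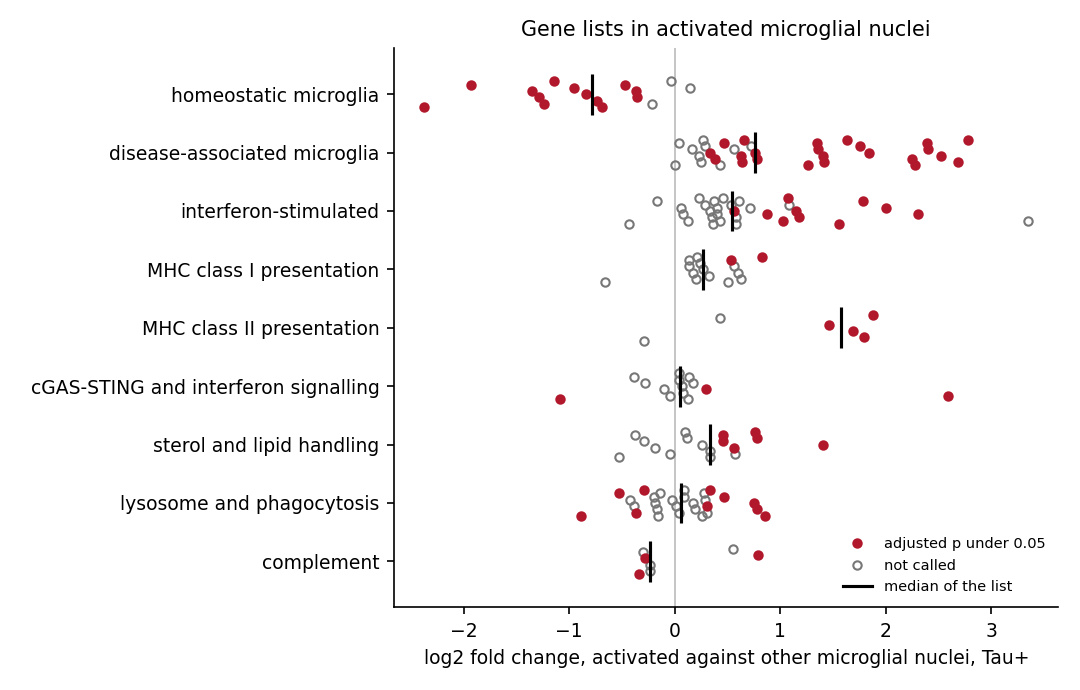
Log2 fold change of activated against other microglial nuclei in Tau+ libraries for the tested genes of 9 lists. Each point is a gene, filled where edgeR's adjusted p was under 0.05, and bars are list medians; 13 of 16 homeostatic genes fell and 23 of 33 disease-associated genes rose, while the cGAS-STING list has a median of 0.05.

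Levels of several of these genes were graded with the number of activation UMIs, on both sides of the threshold. Apoe had a mean of 1017 CPM in nuclei with 0 activation UMIs, 2018 with 1, 2936 with 2 and 3332 with 3 or more. Lilrb4a went from 61.8 to 178, 259 and 500 CPM, and Igf1 from 12.5 to 32.5, 67.6 and 147 CPM. P2ry12 went from 865 to 629, 455 and 309 CPM, and Bank1 from 150 to 76.2, 33.8 and 8.60 CPM. Atf3 differed: it stood at 9.41 CPM with 0 and 8.74 with 1 activation UMI, and at 32.6 with 2 and 104 with 3 or more. Apobec1 went from 283 to 510, 1045 and 1039 CPM and Slc2a5 from 106 to 42.6, 17.5 and 18.0 CPM. Both were thus level from 2 activation UMIs on. Nuclei with more activation UMIs were also deeper, and no test was made of this order.

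**Figure D5:**
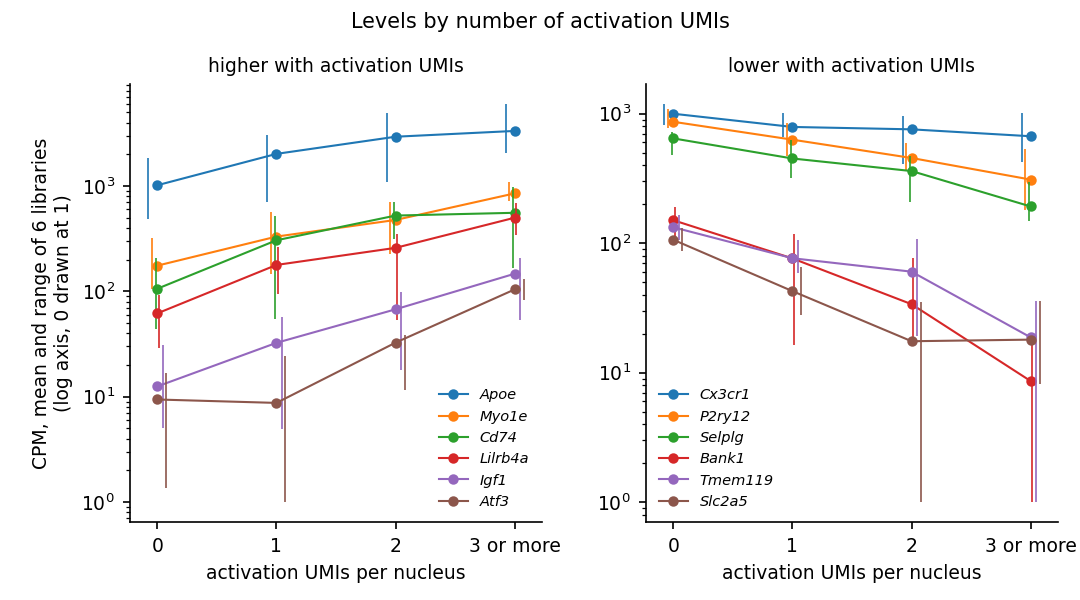
Mean CPM over 6 Tau+ libraries (log axis) of 12 genes in microglial nuclei with 0, 1, 2 or 3 and more activation UMIs, from 1962, 460, 201 and 366 nuclei. Thin bars run from the lowest to the highest library. Apoe goes from 1017 to 3332 CPM and P2ry12 from 865 to 309 CPM.

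Genes of MHC class II, which present peptides taken up from outside the cell, rose: 4 of 6 tested members were called, with a median log2 fold change of 1.58. Cd74, the invariant chain, read 592, 228 and 888 CPM in activated nuclei of Ch25h+/+ and 600, 222 and 680 CPM in those of Ch25h-/-, against 207, 61.4 and 247 CPM and 163, 55.7 and 134 CPM in the others. Among the fitted libraries, replicate 2 was the lowest of each genotype in both states, though replicate numbers pair nothing between genotypes. Within every fitted library the activated value was higher (log2 fold change 1.88 ± 0.10 SE, adjusted p = 7.86e-12). H2-Aa, H2-Ab1 and H2-Eb1, the chains of class II molecules, rose by 1.79, 1.69 and 1.46. Of 15 class I genes, which present peptides made in the cell, 2 rose and none fell, near the 11.0% called over all genes. The 2 that rose were Nlrc5, the transcriptional activator of class I genes, by 0.83 and H2-D1, a class I heavy chain, by 0.53. H2-K1 (0.33) and B2m (0.26) did not pass. Without the library term, 2 class II genes and 0 class I genes were called, with median log2 fold changes of 1.65 and 0.28. The class I count was 0 in Ch25h+/+ libraries alone, 4 higher and 1 lower in Ch25h-/- libraries alone, and 5 without Ch25h+/+ replicate 4. Over all genes, these fits called 409 of 8937, 473 of 8129 and 741 of 8346.

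Of the interferon-stimulated list, 10 of 32 tested genes rose and none fell, with a median log2 fold change of 0.55. They were Ifit2, Ifi207, Ifit3, Ifi213, Oas1a, Slfn5, Ifi204, Oasl2, Usp18 and Rnf213. Ifit2 and Ifit3 encode proteins that bind foreign RNA, and Oas1a an enzyme that senses double-stranded RNA. Ifi207, Ifi204 and Ifi213 belong to a family of close copies on chromosome 1 whose counts may be split. Ifi207 read 137, 154 and 70.2 CPM in activated nuclei of Ch25h+/+ and 243, 118 and 259 CPM in those of Ch25h-/-, and 18.9 to 57.2 CPM in the others. The states did not overlap, and the log2 fold change was 2.0 ± 0.25 (SE, adjusted p = 6.78e-05). Oasl2 read 122, 91.4 and 24.8 CPM in activated nuclei of Ch25h+/+ and 202, 176 and 250 CPM in those of Ch25h-/-. In the other nuclei it read 114, 27.9 and 24.3 CPM and 89.1, 56.8 and 96.1 CPM, so in Ch25h+/+ replicates 1 and 4 the states were nearly level. Ifi204 was called at 1.07 but not without Ch25h+/+ replicate 2, Ch25h-/- replicate 2 or Ch25h-/- replicate 4. Cxcl10, a chemokine induced by interferon, had 3.35 ± 1.01 (SE, adjusted p = 0.123) and was not called, with 104 UMIs in activated nuclei that ranged from 2.54 to 411 CPM between libraries.

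The interferon-stimulated count moved with the library term and with the genotypes fitted. Without the library term, 3 of 32 were called, with a median log2 fold change of 0.58, against 665 of 8292 over all genes, 347 of them higher. In Ch25h+/+ libraries alone 1 of 29 tested genes rose (median log2 fold change 0.11), and in Ch25h-/- libraries alone 15 of 35 did (0.98). Over all genes, 223 of 8937 rose in Ch25h+/+ alone and 253 of 8129 in Ch25h-/- alone. The difference between the genotypes, tested directly as below, was called for none of 32.

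The promoters of 3 of these genes are shown as examples of risen genes that hold matches to the interferon-stimulated response element, searched for as GAAA, any 2 bases and GAAA again, on both strands. Each line gives the 250 bases before the RefSeq start in GRCm38.p6, 5′ to 3′ on the gene's strand, with matches in capitals: chr1:173741810-173742059 (minus strand) for Ifi207, chr5:120907526-120907775 (minus strand) for Oas1a and chr19:34583279-34583528 (plus strand) for Ifit3.
Ifi207: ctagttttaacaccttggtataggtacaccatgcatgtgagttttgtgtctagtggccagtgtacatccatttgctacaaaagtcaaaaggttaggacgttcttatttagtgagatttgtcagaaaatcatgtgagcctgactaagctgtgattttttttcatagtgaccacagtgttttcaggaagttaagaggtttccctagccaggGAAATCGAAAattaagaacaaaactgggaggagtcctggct
Oas1a: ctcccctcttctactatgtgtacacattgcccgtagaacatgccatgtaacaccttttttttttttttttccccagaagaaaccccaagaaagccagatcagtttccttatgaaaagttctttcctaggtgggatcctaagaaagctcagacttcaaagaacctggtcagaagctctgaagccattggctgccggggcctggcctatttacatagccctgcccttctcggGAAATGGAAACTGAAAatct
Ifit3: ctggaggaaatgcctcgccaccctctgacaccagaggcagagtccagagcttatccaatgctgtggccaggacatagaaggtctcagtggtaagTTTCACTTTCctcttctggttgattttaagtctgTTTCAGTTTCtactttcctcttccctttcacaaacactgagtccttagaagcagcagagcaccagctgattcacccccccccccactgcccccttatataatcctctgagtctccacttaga
In Ifi207 the match begins 41 bases before the start. Oas1a has 2 matches that overlap each other, and Ifit3 has 2 on the opposite strand, which read as TTTC, 2 bases and TTTC. Of the 10 risen genes, 8 have a promoter among those searched and 5 of these hold the motif (62.5%). Of the 22 listed genes tested and not called, 17 have such a promoter and 8 of these hold it (47.1%). Among all 6499 tested genes with a promoter the share was 3.39%, and among all 32851 promoters 2.98%. A match describes letters and is no evidence of binding.

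Of 14 tested genes of cGAS-STING and interferon signalling, 2 rose and 1 fell. Ikbke, a kinase of the TBK1 family that activates interferon regulatory factors, rose from 8.23 ± 1.88 to 50.7 ± 16.8 CPM (SD, n = 6), with a log2 fold change of 2.59 ± 0.30 (SE, adjusted p = 1.04e-06). Irf8, a transcription factor of microglial development, rose by 0.30 and was higher in 5 of 6 libraries. With each library left out in turn, 1 or 2 genes of the list rose. Ikbke was called in each of these fits, so the call of Irf8 did not always hold. Tmem173, which encodes STING, read 20.6 to 49.7 CPM in activated and 53.4 to 97.0 CPM in other nuclei, a log2 fold change of -1.09 ± 0.24 (SE, adjusted p = 0.00262), lower in 6 of 6 libraries. It had 45 UMIs in activated nuclei. Its call ended in Ch25h-/- libraries alone, with replicates 1 and 2 alone and with replicates 3 and 4 alone. Cgas, the DNA sensor that activates STING, had -0.10 and was not called.

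Of 17 tested genes of sterol and lipid handling, 6 rose and none fell. They were Fabp5, a fatty acid carrier (1.40), Plin2, a coat protein of lipid droplets (0.78), Nceh1, a cholesteryl ester hydrolase (0.77), the cholesterol exporters Abcg1 (0.57) and Abca1 (0.46), and Soat1, which esterifies cholesterol (0.46). Abca1 read 506 to 685 CPM in activated and 363 to 482 CPM in other nuclei, without overlap. Free RNA accounted for 78.9% of Fabp5 UMIs in the other nuclei and for 29.0% in activated nuclei. The call of Abcg1 ended without Ch25h+/+ replicate 4 or Ch25h-/- replicate 1, with an adjusted p of up to 0.102. The list's count fell to 3 without Ch25h-/- replicate 1 and to 4 without Ch25h-/- replicate 2, and it was 3 under DESeq2 and 2 in Ch25h+/+ libraries alone.

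Of 28 tested genes of lysosome and phagocytosis, 6 rose and 4 fell, and 6 rose and 3 to 5 fell with each library left out in turn. Mitf, a transcription factor of lysosomal genes, rose by 0.86 and Lamp2, a lysosomal membrane protein, by 0.30, besides Ctsb, Ctsd, Ctsz and Atp6v1a. Mertk, a receptor for dying cells related to Axl, had a log2 fold change of -0.29, its ligand gene Gas6 -0.88 and Itgam, an integrin chain that binds complement, -0.53. The call of Mertk ended under DESeq2, without the library term and in Ch25h+/+ libraries alone. Free RNA accounted for 49.8% of Gas6 UMIs in activated nuclei and 26.8% in the others. Of 7 complement genes, C3ar1, the C3a receptor, rose by 0.79 and 2 fell, among them C1qc, a chain of C1q, with a log2 fold change of -0.29. Leaving out each library in turn gave 1 complement gene that rose and 1 to 3 that fell.

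Among 11 lists of other cell types and of proliferation, 3 of 29 tested genes were called (10.3%), near the 11.0% over all genes. Flt1, a receptor of vascular growth factor listed here for endothelium, rose from 23.5 ± 16.2 to 117 ± 39.5 CPM (SD, n = 6), a log2 fold change of 2.26. Of the 7 endothelial and mural markers, Cldn5, Ly6c1 and Rgs5 had no UMI in activated nuclei. With Flt1, the list summed to 72.3 to 206 CPM (218 UMIs) in activated and 27.9 to 112 CPM in other nuclei, and its part in the result was not tested. Prr5l, listed for oligodendrocytes, rose by 0.90, and Stab1, listed for border macrophages, had a log2 fold change of -0.66. No tested neuronal or astrocyte marker was called, and no T or NK cell marker passed the filter on low counts. With no filter, 2 of the 8 fell, as did 601 of 21843 genes tested, and the 8 together had 10 UMIs in activated nuclei. Of the genes linked to tau itself, Mapt had a log2 fold change of 0.57 ± 0.18 (SE, adjusted p = 0.0476), with 51.3% of its UMIs in activated nuclei and 75.2% in the others accounted for by free RNA, and it was not called under DESeq2, at matched depth or without replicate 1 or 2 of either genotype (adjusted p up to 0.248). Prnp, the prion protein gene, had 0.11 and was not called. The estimate of free RNA reached its cap of 100% of Prnp UMIs in both states. Its level in microglia could thus not be told from free RNA.

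At matched depth, where each activated nucleus was paired with another microglial nucleus of its library of nearly the same UMI total, 575 of 4990 genes were called, against 912 of 8292 in the main comparison. Of the named genes called in the main comparison, 36 were tested at matched depth and 34 were called there. With activated nuclei defined without Csf1 and Lpl, 724 genes were called, 642 of them among the 912. The 2 of those 36 genes lost at matched depth were Adarb2 and Mapt. Genes named only as members of a list were not in this count.

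Ch25h itself was read in activated nuclei of 6 libraries. It had 15, 6, 0 and 5 UMIs in the activated nuclei of Ch25h+/+ Tau+ replicates 1 to 4 (38.1, 34.3, 0 and 20.6 CPM) and 3, 1, 0 and 1 UMIs in those of Ch25h-/- Tau+ (9.48, 4.52, 0 and 8.94 CPM). Over all other microglia it had 8 UMIs in Ch25h+/+ Tau+, 2 in Ch25h-/- Tau+ and 4 in the Tau- libraries. Apart from replicate 3, with 5 and 11 activated nuclei, the activated values of the 2 genotypes did not overlap. These counts were too low to enter the fit, so no test was made.

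To ask what the loss of Ch25h changed in activated nuclei, the sums of 3 Ch25h+/+ Tau+ libraries (replicates 1, 2 and 4) and of all 4 Ch25h-/- Tau+ libraries were compared. None of 5184 genes was called (0.0%) by edgeR, with 157 at an unadjusted p under 0.05, and none by DESeq2, with 71. In data simulated with known changes, this comparison recovered 20% of 2-fold and 82% of 4-fold changes, so moderate differences could go unseen. The lowest adjusted p was that of Gm15155, at 126 to 140 CPM in Ch25h+/+ and 27.1 to 53.7 CPM in Ch25h-/- (log2 fold change -1.96 ± 0.34 SE, adjusted p = 0.112). Samd9l, an interferon-stimulated gene outside the list, followed, at 17.1 to 27.9 CPM in Ch25h+/+ and 0 to 161 CPM in Ch25h-/- (log2 fold change 2.35 ± 0.44 SE, adjusted p = 0.123). Without Ch25h-/- replicate 3, with its 11 activated nuclei, Samd9l was the only gene called (adjusted p = 0.0294). Without Ch25h+/+ replicate 2, the neuronal genes Tafa1 and Atp8a2 were called instead.

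Apoe in activated nuclei had a mean of 4342 ± 1204 CPM (SD, n = 3) in Ch25h+/+ and 1689 ± 598 CPM (SD, n = 4) in Ch25h-/-, and the libraries did not overlap. Its log2 fold change was -1.29 ± 0.30 (SE) with an adjusted p of 1.0, so it was not called. With no filter on low counts it was called at -1.40 (adjusted p = 3.46e-08), and with replicates 3 and 4 alone, which set 1 Ch25h+/+ library against 2 Ch25h-/- libraries, at -2.06 (adjusted p = 0.000368). The lone library is there assumed to vary like the others. The other microglia showed the same order, as given above. In the interferon-stimulated list, 24 of 24 tested genes had a positive log2 fold change with the loss of Ch25h, with a median of 0.82, and in the class I list 11 of 11, with a median of 0.61. Over all genes, 2578 of 5184 were positive and the median was -0.0011. Genes of a list were read in the same libraries, so their shared sign is no count of separate results. Libraries overlapped for Oasl2 (24.8 to 122 CPM in Ch25h+/+, 0 to 250 in Ch25h-/-) and Ifi207 (70.2 to 154 and 0 to 259). Both read 0 in Ch25h-/- replicate 3, with its 11 activated nuclei. Slfn8 did not overlap (70.2 to 114 and 128 to 313). With the filter and all libraries of this comparison, no member of the interferon-stimulated or class I list was called, and 9 and 5 had an unadjusted p under 0.05. The disease-associated list was lower in 24 of 32 genes, with a median of -0.18. With no filter on low counts, Oas2 of the interferon-stimulated list was called (log2 fold change 2.79, adjusted p = 0.00216). In replicates 3 and 4 alone, with 1 Ch25h+/+ library, Ifi213 and Rsad2 of that list had log2 fold changes of 7.75 and 4.50. With all libraries of the comparison, Ifi213 had 2.29 ± 0.96 (SE) and was not called. It ranged from 0 to 62.8 CPM in Ch25h+/+ and from 0 to 322 CPM in Ch25h-/-, so its fold changes are uncertain.

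The last comparison asked whether activated nuclei differ from other microglia to a different degree in the 2 genotypes. None of 8292 genes was called (0.0%) by edgeR, with 406 at an unadjusted p under 0.05, and none by DESeq2, with 64. Without Ch25h-/- replicate 2, 9 genes were called, among them the neuronal genes Nrxn3 and Opcml and none of the interferon-stimulated list. In the interferon-stimulated list, 30 of 32 differences were positive, that is, larger in Ch25h-/-, with a median of 0.80 and 16 at an unadjusted p under 0.05. Over all genes, 4161 of 8292 differences were positive, with a median of 0.0029. Fam20c had the lowest unadjusted p of the named genes, with a difference of 1.47 ± 0.38 (SE, adjusted p = 0.52). This comparison shares its libraries with those above and is no separate evidence. Of genes called within a genotype, 409 in Ch25h+/+ and 473 in Ch25h-/-, 231 were called in both, 56.5% of the former and 48.8% of the latter.

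The effect of tau within activated nuclei could not be tested, since the Tau- libraries held 0 to 5 such nuclei each. Sums over libraries do not tell a larger share of expressing nuclei from more RNA per nucleus.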

How the data were processed

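Per the labels' protocols, libraries of nuclear RNA from 16 hippocampal samples were made with a 3' kit of 10x Genomics (v3.1). The authors deposited UMI counts per gene and barcode. Per the file headers, Cell Ranger 4 wrote them, while the submitters' processing notes name Cell Ranger 3.1.0, Seurat and mm10. The gene annotation used for counting and the treatment of intronic reads are not given in the sources used here. Of 32285 gene identifiers, 32158 matched GENCODE M21 (GRCm38), used for names of overlapping genes. Promoters came from RefSeq (GRCm38.p6).

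Nuclei were barcodes with 500 or more UMIs, 300 or more genes and at most 5% mitochondrial UMIs. Doublets were kept. Scrublet (scanpy 1.11.5) marked the highest-scoring 0.8% per 1000 nuclei for removal as an alternative, 2.04 to 12.7% of activated and 3.86 to 7.79% of other microglial nuclei of the fitted libraries. In Ch25h+/+ Tau+ replicate 3, which was not fitted, it marked 40.0% of the 5 activated nuclei. Counts were summed per library and state, the genes of the rule were removed, and edgeR 4.0.16 (quasi-likelihood, TMM, filterByExpr) was fitted over all genes with Benjamini-Hochberg adjustment, in R 4.3.3. Activated and other nuclei of a library are paired by origin, so the library was a block. Between groups, replicates were numbered in accession order and pair nothing. CPM are per 1000000 UMIs of the summed nuclei. Shares used exact permutation tests and exact Clopper-Pearson 95% intervals. Thinned shares are expected shares on drawing 1000 UMIs. Free RNA was estimated from barcodes under 100 UMIs, scaled by excitatory-neuron transcripts. The estimate takes all such transcripts in microglial nuclei as free RNA, and its share of a gene's UMIs was capped at 100%. On simulated data, 67% of 2-fold and 95% of 4-fold changes between activated and other nuclei were recovered over 8292 genes.

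Genes named are the 12 largest rises and 12 largest falls among called genes with a mean of 10 or more UMIs in the higher state and the same direction in every library, plus a fixed set. Between groups none qualified, and the lowest p-values are given instead, chosen after their values were seen. Alternatives were another scaling, DESeq2 1.42.0, no filter, doublets removed, deeper nuclei, matched depth, other thresholds, subsets of libraries and each library left out. The nuclei and lists were chosen with earlier results of these data known. Some genes of the lists are counted but not reported here by name.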

Additional observations from a re-analysis of the deposited data

Results flagged for a closer look

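In all, 3 values stood apart from the rest of their group by Dixon's ratio, among 63 groups of 4 to 6 libraries looked at, where chance flags about 1 in 20 groups. The thinned share of activated nuclei in Ch25h+/+ Tau- replicate 4 was 0.90%, against at most 0.058% in the other 3 libraries of that group, and it rests on 2 nuclei. For Gm31243, the log2 ratio of activated to other nuclei (CPM + 1) was -7.02 in Ch25h-/- Tau+ replicate 4, where activated nuclei had 0 UMIs, and -2.87 to -1.95 in the other 5 libraries. For Trem2, that ratio was -0.41 in Ch25h-/- Tau+ replicate 1 and 0.0016 to 0.13 in the other 5.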

How the results depend on the processing

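The count of 912 genes between activated and other microglia was 456 under DESeq2, 575 at matched depth, 409 in Ch25h+/+ libraries alone, 473 in Ch25h-/- libraries alone and 4 with replicates 3 and 4 alone (2 libraries), and 671 to 854 with each library left out in turn. With no replicate block it was 665. Among the largest rises, the largest falls and the fixed set, 44 genes were called. Of these, 40 were called with every library left out in turn, and Ccl4, Ifi204, Abcg1 and Mapt were not. Irf8, named only as a list member, was not called in all of these fits either. Mapt turned to -0.030 with replicates 3 and 4 alone. The interferon-stimulated count was 7 to 12 with each library left out, the disease-associated count 22 to 24, the homeostatic count 11 or 12, the sterol count 3 to 6 and the class I count 2 to 5. For the loss of Ch25h in activated nuclei, 12 genes were called with no filter, 2 with doublets removed, 16 with replicates 3 and 4 alone (1 Ch25h+/+ against 2 Ch25h-/- libraries, the lone one assumed to vary like the others), 1 with libraries of at least 20 activated nuclei and 0 to 2 with each library left out. For the difference between genotypes, 9 were called with no filter, 8 with replicates 1 and 2 alone, 3 at matched depth and 0 to 9 with each library left out, 9 without Ch25h-/- replicate 2. For the loss of Ch25h, Apoe was among the 12 called with no filter, and its log2 fold change with replicates 3 and 4 alone was -2.06. For the difference between genotypes, it was among the 3 called at matched depth (0.83, edgeR adjusted p = 0.00365). The cause of these moves was not tested. The difference in share ran from -7.48 to 1.43 points with each library left out and reversed without Ch25h+/+ replicate 1 (1.43) or Ch25h-/- replicate 3 (0.69).

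No paired analysis was possible between groups because the labels give no replicate numbers and those used here follow accession order. With replicates 1 and 2 against 3 and 4 as a term, 0 genes were called for the loss of Ch25h in activated nuclei (166 at an unadjusted p under 0.05). The tau effect in activated nuclei and the difference between genotypes in replicates 3 and 4 alone could not be fitted. Leaving out replicate 3 of both Tau+ groups was chosen after seeing the data. Depth limits all values of genes with few UMIs in 49 to 178 activated nuclei.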
